A study of Mus musculus with 9 samples.

Results

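The genes described here encode the machinery that copies DNA in S phase. They are 44 genes chosen by name from the known steps of replication, and each of the 44 had at least 1 probe set of its own among the 18193 genes that the arrays measured under a single symbol. Where a gene had several probe sets, the one with the highest mean over the 9 arrays stood for it. The arrays came from 5 splenic lymphomas of mice that carry the Sca1-MALT1 transgene and from 4 spleens of healthy wild-type mice without it, with 1 Affymetrix array for each sample and total RNA from frozen tissue. MALT1 cleaves and scaffolds signalling proteins between antigen receptors and NF-kB, and regulatory sequences of the Sca1 gene are known to drive transgenes in blood stem and progenitor cells. The labels give neither strain, age nor sex, and they do not say whether the numbered samples came from separate animals, so the p-values below measure the spread between these samples, which may be technical. Ms4a1, which encodes the B-cell marker CD20, had log2 levels of 13.02 to 14.17 in the lymphomas and 13.74 to 13.90 in the wild-type spleens, so the tissue carried B-cell RNA in both groups. The Malt1 probe set differed by a log2 value of -0.59 (limma adjusted p 0.133); no source used here says whether it reads the transgene, so it checks nothing about the labels.

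In G1 phase the origin recognition complex, Cdc6 and Cdt1 load the MCM2-7 helicase on origins, and geminin blocks loading for the rest of the cycle. The kinase Cdc7 and the cyclin-dependent kinases then turn the helicase on, Cdc45 and the GINS complex join it, primase and DNA polymerase alpha start each strand, the RFC complex loads the PCNA clamp, and polymerases delta and epsilon extend the strands. Many of these genes are transcribed in late G1 by E2F factors, so their messages are known to be plentiful in dividing cells, and in a mouse spleen the dividing cells can be lymphocytes of germinal centres as well as erythroid and myeloid precursors. The arrays measured whole tissue, in which fewer cells of a type and less RNA per cell cannot be told apart.

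The replication genes set 2 lymphomas apart and did not separate the groups. Averaged over the 44 genes as the log2 difference from the mean of the wild-type spleens, the replication score was 0.95, 0.91, -0.09, -0.49 and 0.06 in lymphomas 1 to 5, against 0.14, -0.1, 0.01 and -0.04 in wild-type spleens 1 to 4. Lymphomas 1 and 2 thus stood 1.93-fold and 1.88-fold above the wild-type mean, lymphomas 3 and 5 at 0.941-fold and 1.045-fold of it, and lymphoma 4 at 0.714-fold. Lymphoma 1 exceeded every wild-type spleen in 42 of the 44 genes and lymphoma 2 in 40, whereas lymphomas 3, 4 and 5 did so in 2, 3 and 18. Lymphoma 4 was below every wild-type spleen in 33 genes, lymphoma 3 in 14, lymphoma 5 in 10, and lymphomas 1 and 2 in 1 and 2. Such counts were not made over all genes, so they have no background share. Over all genes, lymphoma 1 was the highest array in 18.5% and the lowest in 21.5%, and lymphoma 2 in 14.7% and 18.9%. Lymphoma 4 was the highest in 14.5% and the lowest in 10.5%. These arrays thus often lay at an end of the range for genes of any kind.

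Between the groups, limma called 0 of the 44 genes at an adjusted p under 0.05, where it called 0.715% of all 18193 genes in either direction. The lowest adjusted p among the 44 was 0.108, for Rfc1. At p under 0.05 before adjustment limma had Cdt1 and Gins4 higher (2 of 44, against 6.69% of all genes) and Rfc1 lower (1 of 44, against 8% of all genes), and an unequal-variance test called 0 of all 18193 genes, the members among them, with 3 members (2 higher and 1 lower) at p under 0.05 before adjustment, against 5.9% of all genes higher and 7.21% lower. The difference, lymphoma minus wild-type on the log2 scale as everywhere below, was positive for 39 members and negative for 5, where 50.3% of all genes were positive. It reached 0.5 in 2 members, Ccne1 and Cdc6, as in 5.05% of all genes. Its median over the members was 0.27, against 0.0012 over all genes. This direction rested on lymphomas 1 and 2. Without both of them, which are the highest arrays for most members, so that leaving them out lowers the members' differences, the difference was positive for 10 members and negative for 34, with a median of -0.12, while 52.5% of all genes were positive.

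**Figure D1:**
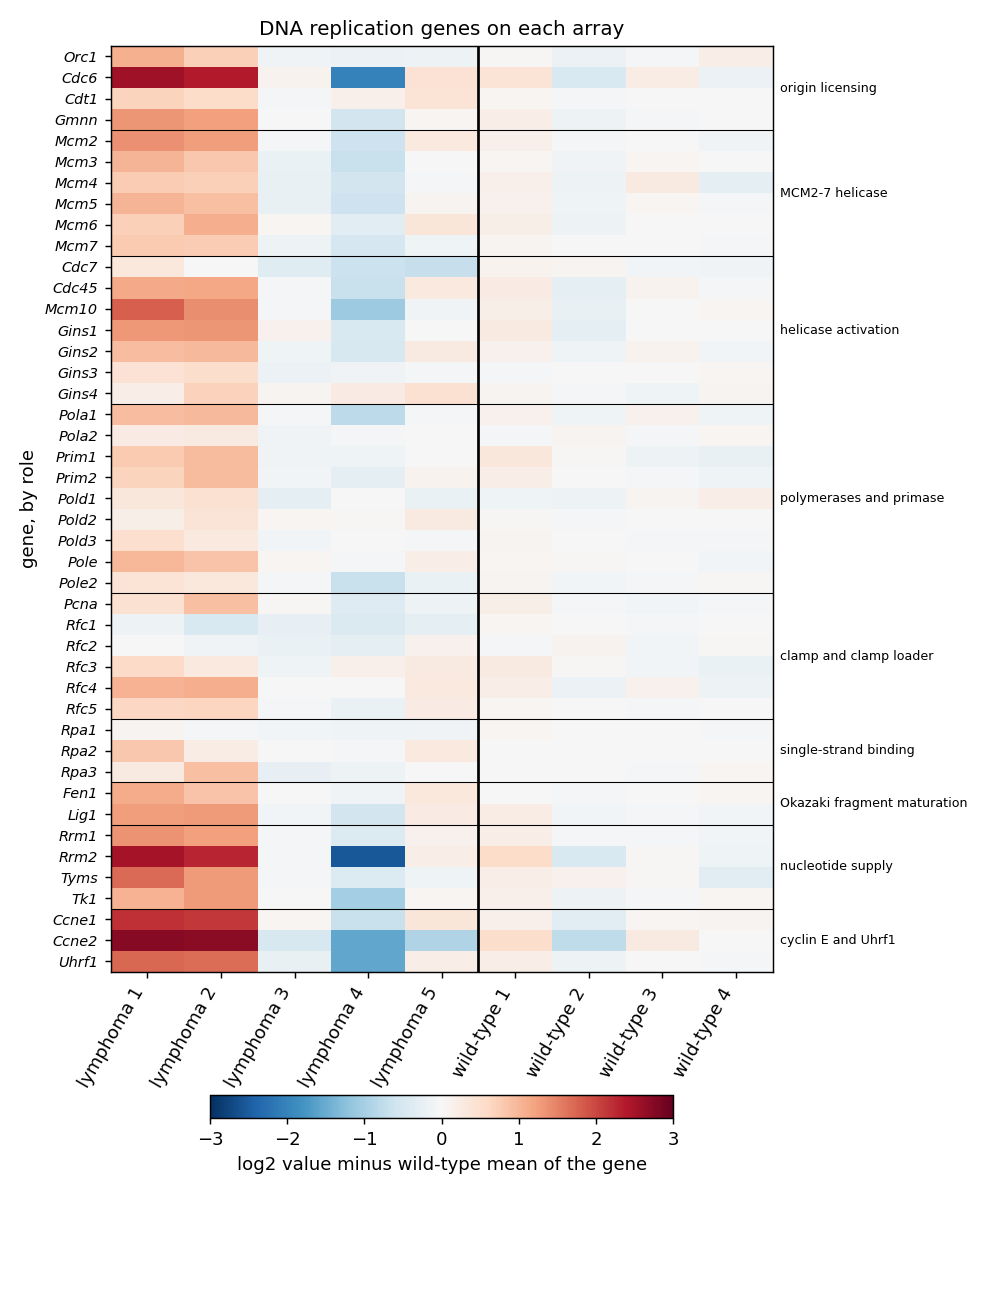
Log2 value of each of the 44 replication genes (rows, by role) on each array (columns, lymphomas left of the black line and wild-type spleens right of it), minus the gene's wild-type mean. Lymphomas 1 and 2 are red in nearly every row, lymphoma 4 is blue in most rows, and lymphomas 3 and 5 lie near the wild-type spleens.

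The members varied far more among the lymphomas than among the wild-type spleens. The SD was larger among the lymphomas for 44 of 44 members, against 78.9% of all genes, and its median over the members was 0.558 among lymphomas and 0.127 among wild-type spleens, against 0.196 and 0.109 over all genes. Lymphoma 1 or 2 was the highest of the 9 arrays for 42 members (95.5%), against 33.2% of all genes. Both lay above each of the other 7 arrays for 37 members (84.1%), against 8.82% of all genes, and lymphoma 4 was the lowest array for 29 members (65.9%), against 10.5% of all genes. These shares describe the arrays and carry no test.

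Promoter sequences from RefSeq (build GRCm38.p6), each 250 bases before to 50 bases after a gene start, were matched by symbol for 35 members in 42 windows. Gmnn, Mcm4, Gins1, Gins2, Gins4, Prim2, Pole, Rfc2 and Ccne2 had no match. The letters TTCGCGC or TTGGCGC on either strand, a core of the E2F site, stood in 15 of the 42 windows (35.7%), against 3.89% of the 32851 windows of all genes. CCAAT on either strand stood in 54.8% of the members' windows and 37.4% of all windows, and TTTGAA, the core of the cell cycle homology region found in mitotic promoters, in 16.7% and 17.9%. The median GC content was 60.7% in the members' windows and 52.7% in all windows. The 14 members with an E2F core had a median difference of 0.24 and a median range over the lymphomas of 1.26, and the 21 matched members without one had medians of 0.27 and 1.12. A match describes the letters and is no evidence of binding. Below are the 250 bases before the gene start of the 4 members with the largest difference among those whose match lies before the start (matches of Lig1 and Cdt1 lie after it), 5′ to 3′ on the gene's strand, shown because replication genes are known E2F targets, with each match in capitals. In Mcm6 each capital run holds a TTGGCGC that overlaps a TTCGCGC read on the other strand, and Orc1 carries TTCGCGC on the other strand.
Fen1 (chr19:10203922-10204171, minus strand): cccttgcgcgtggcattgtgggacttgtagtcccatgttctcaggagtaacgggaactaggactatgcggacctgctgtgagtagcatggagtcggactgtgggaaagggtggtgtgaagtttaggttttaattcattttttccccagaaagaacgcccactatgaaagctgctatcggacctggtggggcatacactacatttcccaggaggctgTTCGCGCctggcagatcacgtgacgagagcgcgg
Mcm6 (chr1:128359706-128359955, minus strand): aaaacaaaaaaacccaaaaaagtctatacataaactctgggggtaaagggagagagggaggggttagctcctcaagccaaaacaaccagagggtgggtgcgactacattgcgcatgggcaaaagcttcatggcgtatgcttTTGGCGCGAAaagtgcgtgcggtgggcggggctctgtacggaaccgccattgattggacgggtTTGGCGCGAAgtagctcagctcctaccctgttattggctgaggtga
Uhrf1 (chr17:56304063-56304312, plus strand): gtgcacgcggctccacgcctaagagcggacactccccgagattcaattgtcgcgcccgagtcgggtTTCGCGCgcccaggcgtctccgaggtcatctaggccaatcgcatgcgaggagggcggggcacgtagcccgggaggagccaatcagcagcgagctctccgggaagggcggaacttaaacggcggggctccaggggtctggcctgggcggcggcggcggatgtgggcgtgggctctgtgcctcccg
Orc1 (chr4:108579204-108579453, plus strand): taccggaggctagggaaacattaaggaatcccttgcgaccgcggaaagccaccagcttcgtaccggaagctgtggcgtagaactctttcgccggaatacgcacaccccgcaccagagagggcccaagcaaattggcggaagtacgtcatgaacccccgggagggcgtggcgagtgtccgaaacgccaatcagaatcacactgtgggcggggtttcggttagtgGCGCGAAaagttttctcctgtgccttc

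Genes of origin licensing were high in lymphomas 1 and 2. Their mean score was 1.4, 1.22, -0.01, -0.65 and 0.19 in lymphomas 1 to 5, against 0.17, -0.21, 0.02 and 0.02 in wild-type spleens 1 to 4. Cdc6, the ATPase that helps the origin recognition complex load the helicase, had log2 levels of 10.72, 10.57, 8.29, 6.16 and 8.63 in lymphomas 1 to 5, against 8.58, 7.74, 8.40 and 8.02 in wild-type spleens 1 to 4. It spanned over 4 log2 units among the lymphomas, and lymphomas 3 and 5 lay inside or near the wild-type range while lymphoma 4 lay below it. Its means were 8.87 ± 1.88 in lymphoma (SD, n = 5) and 8.18 ± 0.38 in wild-type spleen (SD, n = 4), so its difference of 0.69 had an interval of -1.17 to 2.55 (95%, limma) and an adjusted p of 0.746. Gmnn, which encodes the licensing inhibitor geminin, had levels of 11.97, 11.88, 10.64, 10.08 and 10.69 in lymphomas 1 to 5, against 10.83, 10.49, 10.57 and 10.65 in wild-type spleens 1 to 4. Geminin protein accumulates in S and G2 phase, and its message was high on the same arrays as the loading factors. Orc1, the largest subunit of the origin recognition complex, had levels of 8.31, 7.96, 7.14, 7.09 and 7.10 in lymphomas 1 to 5, against 7.29, 7.08, 7.19 and 7.45 in wild-type spleens 1 to 4, with lymphomas 3 to 5 inside the wild-type range. Cdt1, the partner of Cdc6, had levels of 11.96, 11.84, 11.25, 11.44 and 11.71 in lymphomas 1 to 5, against 11.34, 11.24, 11.28 and 11.31 in wild-type spleens 1 to 4. Only lymphoma 3 overlapped the wild-type spleens for Cdt1, whose difference of 0.35 had an unadjusted p of 0.0309 and an adjusted p of 0.287 (limma).

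All 6 subunits of the MCM2-7 helicase had positive differences, between 0.14 and 0.45, and the 6 subunits were high on the same arrays. Lymphomas 1 and 2 lay above every wild-type spleen for each of the 6, and lymphoma 4 below every wild-type spleen for each of the 6. Mcm2, a subunit that Cdc7 phosphorylates, had levels of 12.26, 12.15, 10.87, 10.29 and 11.19 in lymphomas 1 to 5, against 11.05, 10.87, 10.89 and 10.79 in wild-type spleens 1 to 4. Mcm6 had levels of 11.67, 12.05, 10.998, 10.60 and 11.33 in lymphomas 1 to 5, against 11.13, 10.80, 10.94 and 10.93 in wild-type spleens 1 to 4. By the probe sets that stood for the genes, Mcm6 was the only subunit with its highest value in lymphoma 2. Other probe sets of Mcm2, Mcm3, Mcm4, Mcm5 and Mcm7 were also highest there, so this order depends on the probe set. Mcm5 had levels of 12.09, 11.96, 10.83, 10.43 and 11.14 in lymphomas 1 to 5, against 11.19, 10.91, 11.12 and 10.99 in wild-type spleens 1 to 4. Mcm4 had the smallest difference of the 6 (0.14), at 12.05, 12.01, 11.07, 10.74 and 11.26 in lymphomas 1 to 5, against 11.44, 11.14, 11.57 and 11.002 in wild-type spleens 1 to 4. Its wild-type spleens spread more widely than those of the other subunits, so the groups overlapped more. Mcm3 differed by 0.19 and Mcm7 by 0.16. The adjusted p-values of the 6 lay between 0.541 and 0.86 (limma).

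Most genes that activate the helicase were high on the same arrays, and Cdc7 was above the wild-type range in lymphoma 1 alone. Mcm10, a factor needed to start unwinding, had levels of 10.32, 9.92, 8.50, 7.45 and 8.41 in lymphomas 1 to 5, against 8.71, 8.30, 8.52 and 8.59 in wild-type spleens 1 to 4. Gins1, a subunit of the GINS complex, had levels of 9.20, 9.20, 8.004, 7.42 and 7.90 in lymphomas 1 to 5, against 8.16, 7.59, 7.89 and 7.89 in wild-type spleens 1 to 4. Cdc45, which forms the active helicase with MCM2-7 and GINS, had levels of 8.93, 8.94, 7.71, 7.13 and 8.08 in lymphomas 1 to 5, against 8.04, 7.49, 7.88 and 7.72 in wild-type spleens 1 to 4. In all 3 genes lymphomas 1 and 2 lay above the wild-type range, lymphoma 4 below it and lymphoma 3 inside it. Gins2 differed by 0.31. Gins3, with the smallest difference of the role (0.12), had levels of 8.34, 8.44, 7.74, 7.82 and 7.86 in lymphomas 1 to 5, against 7.87, 7.90, 7.93 and 7.96 in wild-type spleens 1 to 4. Gins4 had levels of 9.03, 9.51, 8.91, 9.08 and 9.28 in lymphomas 1 to 5, against 8.91, 8.79, 8.70 and 8.91 in wild-type spleens 1 to 4. Lymphoma 3 lay inside its wild-type range and the other 4 lymphomas above it, for a difference of 0.33 (unadjusted p 0.0229, adjusted p 0.257, limma). Cdc7, the kinase that triggers origin firing, had levels of 10.83, 10.54, 10.16, 9.88 and 9.83 in lymphomas 1 to 5, against 10.62, 10.61, 10.43 and 10.42 in wild-type spleens 1 to 4. Lymphoma 1 was above its wild-type range, lymphoma 2 inside it and the other 3 below it, for a difference of -0.27 (adjusted p 0.574, limma). Lymphomas 1 and 2 were the highest of its 5 lymphomas, so that leaving them out lowers its difference, which was then -0.57, in a fit that called 1.01% of all genes lower, and is given as a description.

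Polymerase and primase genes moved by less. The mean score of these 9 genes was 0.56, 0.6, -0.07, -0.22 and 0.01 in lymphomas 1 to 5, against 0.08, -0.03, -0.02 and -0.04 in wild-type spleens 1 to 4, and all 9 lay above every wild-type spleen in lymphomas 1 and 2. Pole, the catalytic subunit of the leading-strand polymerase epsilon, had levels of 9.34, 9.21, 8.40, 8.30 and 8.54 in lymphomas 1 to 5, against 8.40, 8.39, 8.33 and 8.27 in wild-type spleens 1 to 4. Lymphomas 3 and 4 lay within its wild-type range or close to it, and its difference of 0.41 had an interval of -0.077 to 0.90 (adjusted p 0.427, limma). Pole2, the second subunit of the same enzyme, had levels of 9.29, 9.20, 8.83, 8.22 and 8.67 in lymphomas 1 to 5, against 8.96, 8.80, 8.85 and 8.91 in wild-type spleens 1 to 4, which gave the smallest difference of the role (-0.038). By the probe sets that stood for them, the primase subunits lay highest in lymphoma 2, while another probe set of each lay highest in lymphoma 1. Prim1, the catalytic one, had levels of 10.65, 10.82, 9.76, 9.73 and 9.88 in lymphomas 1 to 5, against 10.21, 9.91, 9.72 and 9.65 in wild-type spleens 1 to 4. Prim2, the regulatory one, had levels of 8.98, 9.28, 8.24, 8.04 and 8.42 in lymphomas 1 to 5, against 8.53, 8.30, 8.26 and 8.20 in wild-type spleens 1 to 4. Pold2, the regulatory subunit of the lagging-strand polymerase delta, had levels of 9.55, 9.75, 9.43, 9.42 and 9.66 in lymphomas 1 to 5, against 9.41, 9.34, 9.38 and 9.38 in wild-type spleens 1 to 4. It was the only member whose 5 lymphomas all lay above all 4 wild-type spleens, as did 3.29% of all genes, yet its difference was small at 0.18 ± 0.085 (SE, adjusted p 0.356, limma). Pola1 and Pola2 of polymerase alpha differed by 0.21 and 0.069, and Pold1 and Pold3 of polymerase delta by 0.057 and 0.13.

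The clamp loader split into genes that followed lymphomas 1 and 2 and genes that did not. Rfc4, a small subunit, had levels of 9.32, 9.37, 8.26, 8.26 and 8.58 in lymphomas 1 to 5, against 8.49, 8.09, 8.41 and 8.12 in wild-type spleens 1 to 4. Rfc5, another small subunit, had levels of 9.64, 9.65, 8.97, 8.81 and 9.26 in lymphomas 1 to 5, against 9.08, 9.004, 8.96 and 9.004 in wild-type spleens 1 to 4. For both, lymphomas 1 and 2 were the highest arrays and lymphoma 3 lay inside the wild-type range. Rfc1, the large subunit that binds DNA, had levels of 10.71, 10.42, 10.62, 10.43 and 10.57 in lymphomas 1 to 5, against 10.92, 10.89, 10.83 and 10.86 in wild-type spleens 1 to 4. All 5 lymphomas lay below all 4 wild-type spleens for Rfc1, as for 4.04% of all genes, and its difference was -0.32 ± 0.079 (SE, adjusted p 0.108, limma). With array weights Rfc1 passed the test (-0.34, adjusted p 0.029), in a fit that called 1.13% of all genes lower, and its other 2 probe sets differed by -0.15 and -0.47. Rfc2, with the smallest difference of the role (-0.10), had levels of 10.82, 10.73, 10.64, 10.54 and 10.97 in lymphomas 1 to 5, against 10.79, 10.94, 10.75 and 10.87 in wild-type spleens 1 to 4, so the groups overlapped. Rfc3 differed by 0.24, and Pcna, the clamp itself, by 0.17.

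The single-strand binding protein RPA, which coats unwound DNA, was the role with the narrowest spread of scores over the lymphomas (SD 0.25). Its single genes differed: the range over the lymphomas was 0.23 for Rpa1, 0.87 for Rpa2 and 1.15 for Rpa3. Rpa1, its large subunit, had levels of 13.14, 13.01, 12.96, 12.91 and 12.94 in lymphomas 1 to 5, against 13.10, 13.05, 13.05 and 12.999 in wild-type spleens 1 to 4. Those values span 0.234 log2 units over the 9 arrays, with the groups overlapping. Rpa2 had levels of 10.77, 10.18, 9.95, 9.90 and 10.26 in lymphomas 1 to 5, against 9.98, 9.96, 9.96 and 9.94 in wild-type spleens 1 to 4, with lymphoma 1 the highest. Rpa3 had levels of 9.23, 9.87, 8.72, 8.81 and 8.98 in lymphomas 1 to 5, against 8.97, 8.94, 8.91 and 9.04 in wild-type spleens 1 to 4, with lymphoma 2 alone well above the wild-type range. The flap endonuclease Fen1 and the ligase Lig1, which finish Okazaki fragments, were higher in lymphomas 1, 2 and 5 than in every wild-type spleen. Fen1 had levels of 13.41, 13.16, 12.32, 12.21 and 12.62 in lymphomas 1 to 5, against 12.30, 12.23, 12.31 and 12.38 in wild-type spleens 1 to 4. Lig1 had levels of 11.47, 11.48, 10.13, 9.67 and 10.47 in lymphomas 1 to 5, against 10.43, 10.14, 10.17 and 10.12 in wild-type spleens 1 to 4. Their differences were 0.44 (adjusted p 0.434) and 0.43 (adjusted p 0.626, limma).

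Genes of nucleotide supply spread widely. Rrm2, the subunit of ribonucleotide reductase that limits its activity in S phase, had levels of 13.01, 12.79, 10.47, 7.97 and 10.70 in lymphomas 1 to 5, against 11.05, 10.05, 10.54 and 10.39 in wild-type spleens 1 to 4. Lymphoma 1 lay over 5 log2 units above lymphoma 4, and the mean difference of 0.48 had an interval of -1.55 to 2.51 (adjusted p 0.847, limma). Rrm1, the large subunit, had levels of 11.99, 11.89, 10.61, 10.24 and 10.76 in lymphomas 1 to 5, against 10.84, 10.57, 10.61 and 10.57 in wild-type spleens 1 to 4, a narrower spread with the arrays in nearly the same order. Tk1, thymidine kinase, had levels of 10.21, 10.46, 9.16, 8.16 and 9.22 in lymphomas 1 to 5, against 9.33, 9.02, 9.11 and 9.23 in wild-type spleens 1 to 4. Tyms, which makes thymidylate, had levels of 7.55, 7.13, 5.80, 5.46 and 5.75 in lymphomas 1 to 5, against 6.05, 5.98, 5.91 and 5.52 in wild-type spleens 1 to 4. The Tyms probe set was dim in most samples, where RMA compresses differences, and the 4 probe sets of Tyms all had positive differences.

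The cyclin E genes and Uhrf1 formed the role with the widest spread of scores over the lymphomas. Cyclin E drives cells from G1 into S phase, and Uhrf1 brings the maintenance methyltransferase to newly copied DNA. Ccne1 had the largest difference of the 44 members (0.82), with levels of 11.89, 11.82, 9.77, 9.04 and 10.07 in lymphomas 1 to 5, against 9.86, 9.40, 9.77 and 9.78 in wild-type spleens 1 to 4. Its means were 10.52 ± 1.28 in lymphoma (SD, n = 5) and 9.70 ± 0.21 in wild-type spleen (SD, n = 4), and the adjusted p was 0.548 (limma). Ccne2 had levels of 9.40, 9.39, 6.22, 5.13 and 5.78 in lymphomas 1 to 5, against 7.20, 5.93, 6.94 and 6.66 in wild-type spleens 1 to 4. In lymphomas 1 and 2 it stood about 2.7 log2 units above the wild-type mean, and lymphomas 4 and 5 lay below every wild-type spleen. Uhrf1 had levels of 11.24, 11.19, 9.29, 7.96 and 9.72 in lymphomas 1 to 5, against 9.70, 9.36, 9.52 and 9.48 in wild-type spleens 1 to 4, with lymphoma 4 more than 1.5 log2 units below the wild-type mean.

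**Figure D2:**
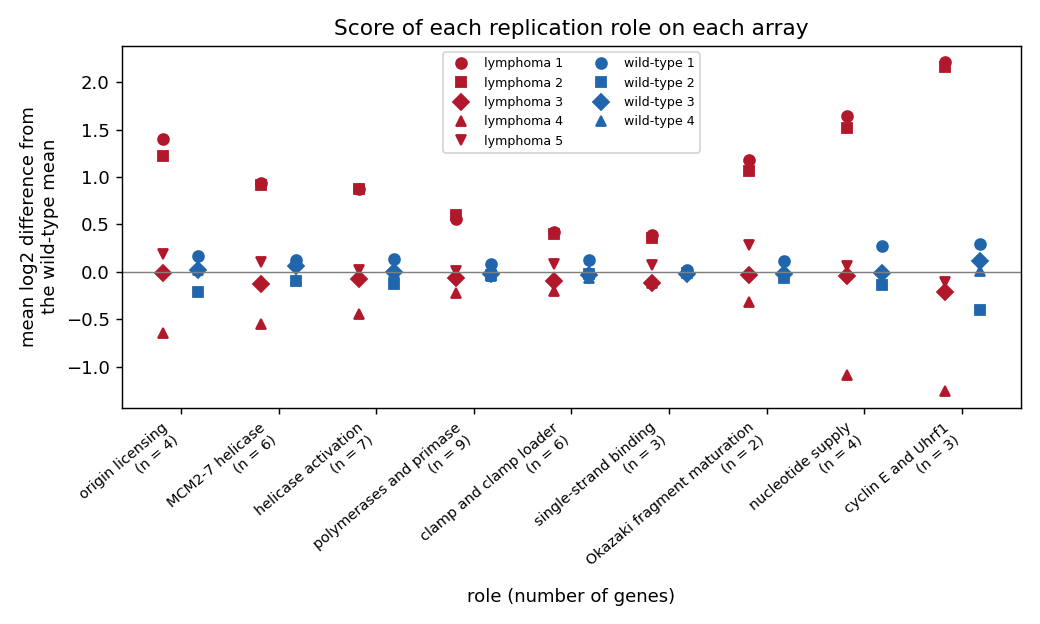
Mean log2 difference from the wild-type mean over the genes of each role, for each lymphoma (red, left) and each wild-type spleen (blue, right), with the number of genes under each role. Lymphomas 1 and 2 are highest in every role and lymphoma 4 is lowest, nearly level with lymphoma 3 for single-strand binding, with a span from 2.21 to -1.26 for cyclin E and Uhrf1 and from 0.39 to -0.12 for single-strand binding.

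**Figure D3:**
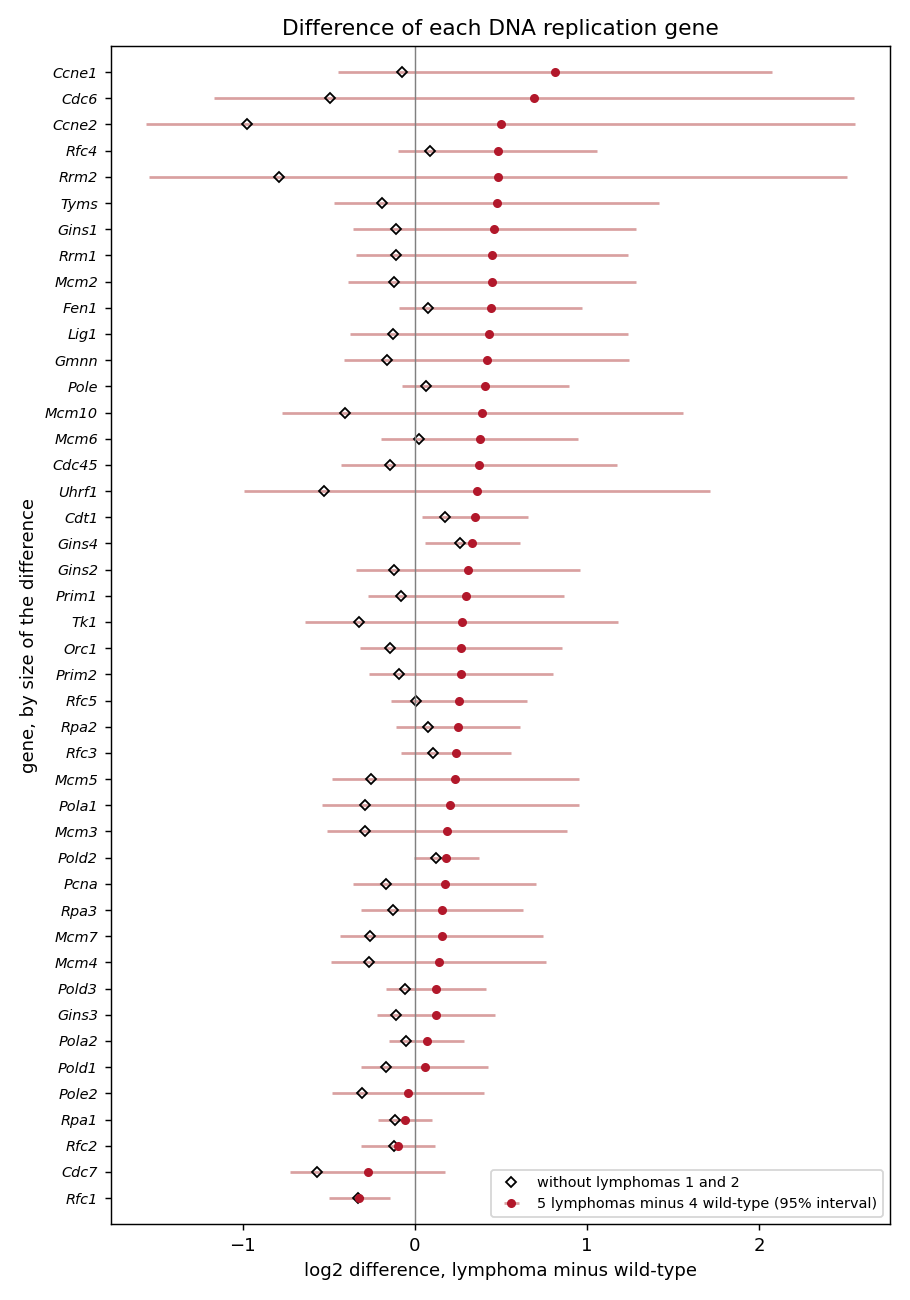
Log2 difference of each member, 5 lymphomas minus 4 wild-type spleens, with its 95% interval from limma (red), and the difference without lymphomas 1 and 2 (open diamonds). The red points are positive for 39 members and the diamonds for 10, and the intervals of 41 members include 0.

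Other probe sets of the members gave a like picture. The 44 genes had 95 probe sets, of which 80 had positive and 15 negative differences. Limma over all 45037 probe sets called 0 of the 95, where it called 0.486% of all probe sets, with 7 higher and 2 lower at p under 0.05 before adjustment, against 5.15% and 8.76% of all probe sets. Of the 33 members with several probe sets, 6 had probe sets of both signs: Mcm10, Pola1, Pola2, Pold3, Pole2 and Rfc2. Lymphoma 1 or 2 was the highest array for 84 of the 95.

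Further cell cycle genes followed the same arrays. Of 40 measured genes of replication, its checkpoint and histone supply outside the 44, 27 had positive and 13 negative differences, and limma called 0, with 0 higher and 1 lower at p under 0.05 before adjustment. Their score was 0.5, 0.51, -0.09, -0.35 and -0.16 in lymphomas 1 to 5, against 0.05, -0.09, 0.08 and -0.04 in wild-type spleens 1 to 4. The histone chaperone gene Asf1b (0.51) and Dut (0.41), which keeps uracil out of DNA, had the largest differences. Of 13 E2F factors and pocket proteins 11 had positive differences, and limma called 0, with 1 higher at p under 0.05 before adjustment. Their score was 1.0, 0.94, 0.04, -0.34 and -0.03 in lymphomas 1 to 5, against 0.12, -0.08, 0.01 and -0.04 in wild-type spleens 1 to 4, and the largest differences were those of E2f8 (1.02), a repressor of the family, and Tfdp2 (0.71), a partner of E2F. All 17 measured mitosis genes had positive differences, and limma called 0 of them, with 0 at p under 0.05 before adjustment. The mitosis score was 1.77, 1.56, -0.11, -1.32 and -0.04 in lymphomas 1 to 5, against 0.26, -0.37, 0.07 and 0.04 in wild-type spleens 1 to 4, with Ccna2 at 0.74 and Mki67 at 0.54. In each of these lists lymphomas 1 and 2 were the highest arrays and lymphoma 4 the lowest.

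**Figure D4:**
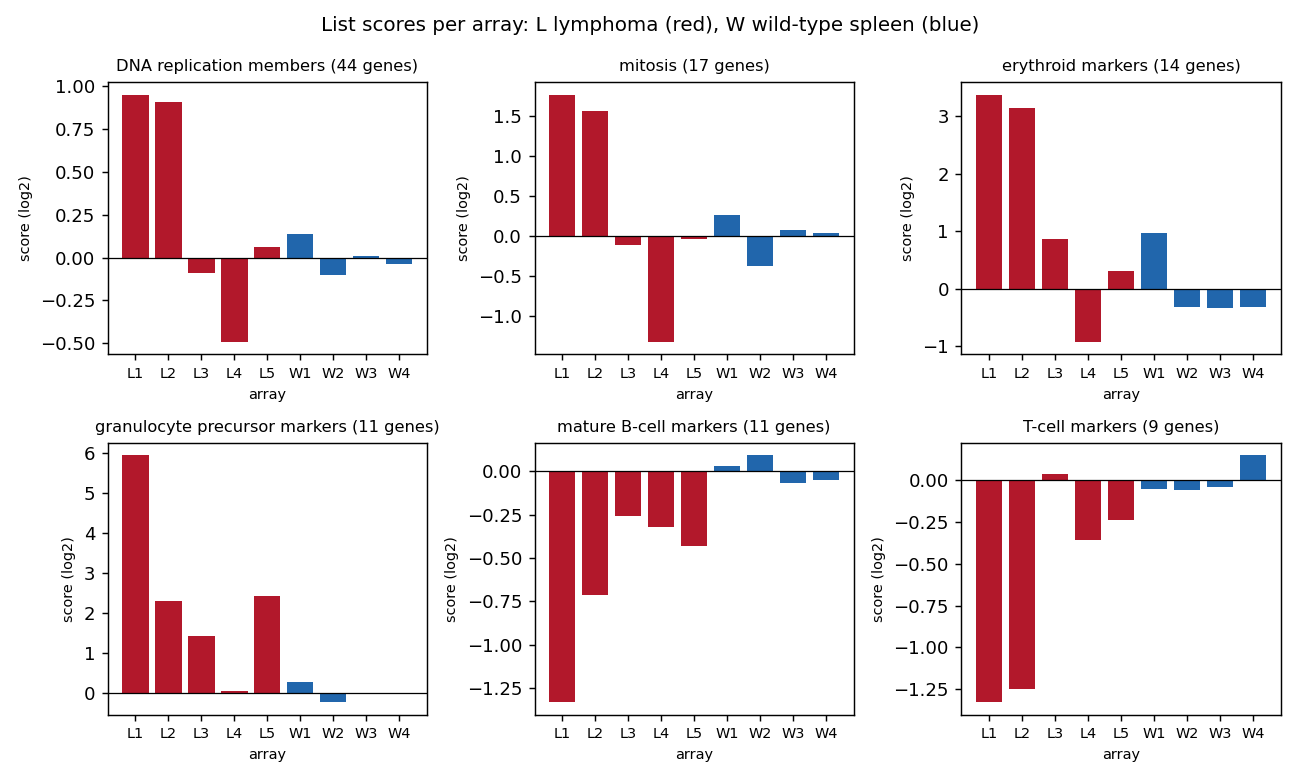
Score of 6 gene lists on each array, as the mean log2 difference from the wild-type mean, for lymphomas 1 to 5 (L, red) and wild-type spleens 1 to 4 (W, blue); the panels differ in scale. The replication, mitosis and erythroid scores are highest in L1 and L2, lowest in L4 and, among the wild-type spleens, highest in W1.

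Erythroid markers were highest and lowest in the same lymphomas as the replication score. Marker lists of other cell types followed that score to differing degrees or not at all. The part of any cell type in it was not tested. All 14 measured erythroid markers had positive differences, led by Rhag (2.36), a membrane protein of red cell precursors, and Hbb-b2 (2.33), whose near-identical copies can share probes. Limma called 0 of the 14, with 1 at p under 0.05 before adjustment. The erythroid score was 3.37, 3.14, 0.87, -0.92 and 0.31 in lymphomas 1 to 5, against 0.97, -0.32, -0.33 and -0.32 in wild-type spleens 1 to 4, so lymphomas 1 and 2 were highest, lymphoma 4 lowest and wild-type spleen 1 the highest of its group, as in the replication score. With the erythroid score as a covariate, 34 of the 44 replication genes had a negative difference, against 47.3% of all genes. That fit called 0 of the 44 and 0.665% of all genes, with 9 members lower at p under 0.05 before adjustment, against 6.72% of all genes, and a lowest adjusted p of 0.0665 (Cdc7, limma). The erythroid score is far higher in lymphomas 1 and 2 than elsewhere, so this covariate mostly marks the arrays where most members are highest. Leaving those arrays out also gave 34 negative differences, so the covariate fit is no separate result. Granulocyte precursor markers were scored at 5.95, 2.29, 1.42, 0.04 and 2.43 in lymphomas 1 to 5, against 0.27, -0.24, 0.0 and -0.03 in wild-type spleens 1 to 4. All 11 had positive differences, with S100a9 at 3.41 and Lcn2 at 3.15, and limma called 0 (7 at p under 0.05 before adjustment). Of the lymphomas, the granulocyte score was highest in lymphoma 1 and lowest in lymphoma 4, as was the replication score. Lymphomas 5 and 2 had similar granulocyte scores (2.43 and 2.29), and lymphoma 5 lay near the wild-type mean for the replication genes. The part of these cells in the replication score was not tested.

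T-cell markers stood lowest in lymphomas 1 and 2, and mature B-cell markers in lymphoma 1. Mature B-cell markers were scored at -1.33, -0.71, -0.26, -0.32 and -0.43 in lymphomas 1 to 5, against 0.03, 0.09, -0.07 and -0.05 in wild-type spleens 1 to 4. All 11 had negative differences, with the IgE receptor gene Fcer2a at -1.77 and the complement receptor gene Cr2 at -1.25, and limma called 0 (4 at p under 0.05 before adjustment). Lymphoma 1 was the lowest of the 9 arrays for 9 of the 11. Lymphoma 2 was the highest array for 3 of them, Ms4a1, Cd79a and Blk, and the lowest for 2, Fcer2a and Cd72. T-cell markers were scored at -1.33, -1.25, 0.04, -0.36 and -0.24 in lymphomas 1 to 5, against -0.05, -0.06, -0.04 and 0.15 in wild-type spleens 1 to 4, with Cd8b1 at -1.69 and Cd8a at -0.9999; limma called 0 of 9 (3 at p under 0.05 before adjustment). Germinal centre B-cell markers ranged from -1.09 to -0.2 in lymphomas and -0.31 to 0.29 in wild-type spleens, with Rgs13 at -1.37 and Mybl1 at -1.17, and limma called 0 of 7 (2 lower at p under 0.05 before adjustment). The germinal centre score was -0.2, -1.09, -0.22, -0.42 and -0.56 in lymphomas 1 to 5, so lymphomas 1 and 3 were nearly level and lymphoma 2 was lowest. B-cell precursor markers ranged from -0.3 to 1.82 in lymphomas and -0.07 to 0.06 in wild-type spleens, with Vpreb1 at 0.88 and Rag1 at 0.79, and were high in lymphoma 1 alone. Stem and progenitor markers were scored at 1.01, 0.27, 0.08, -0.61 and -0.12 in lymphomas 1 to 5, against 0.09, -0.07, -0.05 and 0.03 in wild-type spleens 1 to 4. Like the replication score, theirs was highest in lymphomas 1 and 2, lowest in lymphoma 4 and, among the wild-type spleens, highest in wild-type spleen 1. Tal1, which erythroid cells also express, differed by 1.49 and Kit by -0.31. Plasma cell markers ranged from -0.24 to 1.21 in lymphomas and -0.04 to 0.09 in wild-type spleens, with Creld2 at 1.18 and Jchain at 0.72. Limma called 0 of 6, 0 of 8 and 0 of 8 genes of these last lists, with 0, 0 and 3 at p under 0.05 before adjustment. The macrophage list, like the others, was chosen with earlier results of these data known, so its calls are a description. Of its genes, 9 of 10 had positive differences, and limma called 7 higher at an adjusted p under 0.05, against 0.407% of all genes. Among them were C1qb (2.40), C1qc (2.34) and C1qa (1.93) of complement C1q. Marco was called lower (-1.64), against 0.308% of all genes, and 2 were not called. The macrophage scores ran from 0.73 to 1.26 in lymphomas and -0.16 to 0.08 in wild-type spleens.

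Measures of RNA quality also differed between arrays, and their part was not tested. The 18S control level was 12.68, 13.37, 12.18, 12.63 and 12.86 in lymphomas 1 to 5, against 12.37, 12.15, 12.16 and 12.16 in wild-type spleens 1 to 4. The log2 difference between the 3′ and 5′ control probe sets of Gapdh was 2.80 in lymphoma 1, 1.92 to 2.20 in the other lymphomas, and 2.18 to 2.42 in the wild-type spleens. The 18S level was higher in lymphomas 1, 2, 4 and 5 than in every wild-type spleen, so as a covariate it partly stands for the group. With this covariate 37 of the 44 members had a negative difference, against 50% of all genes. That fit called 0 of the 44 and 0.077% of all genes, so it could separate few genes of any kind, with 1 member lower at p under 0.05 before adjustment, against 3.19% of all genes (limma).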

How the data were processed

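Per the labels' protocols, total RNA of frozen tissue was labelled with biotin for Affymetrix arrays. The authors deposited log2 values made with RMA, as the submitters' processing notes say; its version and probe definitions were not stated in any source used here. Values were used as deposited: array medians lay between 6.88 and 6.97. Of 45101 probe sets, 64 controls were left out of tests. Platform annotation gave 34958 probe sets 1 symbol, 932 several and 9211 none, and only the first kind was named.

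The comparison used limma 3.58.1 under R 4.3.3 (two-sided, Benjamini-Hochberg over all 18193 genes or all 45037 probe sets, no covariate). A check on simulated data gave both groups of a gene the same spread. It therefore does not cover the members, whose SD was larger among the lymphomas. A score is the mean over a list of each gene's difference from its wild-type mean. The members, lists and alternatives were chosen with earlier results of these data known. Each array is given for the 3 largest and the smallest difference of a role, for all members of roles under 4 genes, and for genes whose groups did not overlap; lists name called genes or the 2 largest differences. Further values and examples were chosen after they were seen. Figures used matplotlib 3.10.9 in Python 3.11.15.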

Additional observations from a re-analysis of the deposited data

Results flagged for a closer look

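In 3 members, wild-type spleen 1 lay above the other 3 wild-type spleens by gaps of 0.225 to 0.267 log2 units. Pcna stood at 12.97 in wild-type spleen 1 and at most 12.75 in the others, Lig1 at 10.43 against 10.17, and Rrm1 at 10.84 against 10.61. The gap took up 0.859, 0.861 and 0.855 of the range of the 4 spleens, past Dixon's limit of 0.829. The 88 groups examined (44 genes in lymphoma and in wild-type) gave these 3, and chance alone flags about 1 in 20 groups, so the flags are no excess. Wild-type spleen 1 also had the highest erythroid score of its group (0.97, against -0.33 to -0.32). No lymphoma passed this limit in any member. The ratio uses the gap between an end value and its nearest neighbour, so it could not flag lymphomas 1 and 2 where both were high. In Ccne2, for example, they stood at 9.40 and 9.39, and lymphoma 3 at 6.22.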

How the results depend on the processing

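The call of 0 members held under 19 of the 21 alternatives; array weights called 1 (Rfc1) and leaving out lymphomas 1 and 2 called 1 (Cdc7, lower by 0.57, adjusted p 0.0282 by limma, after the removal of its 2 highest lymphomas). The dim filter left Tyms untested (43 members), and the omission of marked probe sets left Cdc6, Cdc7, Mcm7, Pole and Fen1 untested (39 members). The count over all genes moved more: 130 as reported, 532 with array weights, 0 with unequal variances (2384 at p under 0.05 before adjustment), 14 with the 18S level, 601 without lymphomas 1 and 2 and 10 to 328 with 1 array left out. The median member difference was 0.12 to 0.41 with 1 array left out (lowest without lymphoma 1, 0.13 without lymphoma 2, highest without lymphoma 4), 0.023 with array weights, -0.11 with the erythroid score, -0.17 with the 18S level and -0.12 without lymphomas 1 and 2, while the median of all genes shifted by at most 0.014. With the replicate number as a block, limma called 7 genes and 0 members and the median was 0.31. No wild-type spleen has the number 5, so this block takes lymphoma 5 out of the comparison. Leaving out lymphoma 5 gave the same median, 0.31. The labels do not say that a number pairs samples, and the deviations of same-numbered arrays correlated by 0.118, -0.201, 0.141 and 0.004 across genes, so the block is given only here. No dim filter, quantile normalization, median centring, intensity trend or unequal-variance test changed a member's sign. The signs of single members, none called, turned as follows; the cause was not tested. Without lymphomas 1 and 2, 29 members turned: Orc1 -0.14, Cdc6 -0.49, Gmnn -0.16, Mcm2 -0.12, Mcm3 -0.29, Mcm4 -0.27, Mcm5 -0.25, Mcm7 -0.26, Cdc45 -0.15, Mcm10 -0.41, Gins1 -0.11, Gins2 -0.12, Gins3 -0.11, Pola1 -0.29, Pola2 -0.054, Prim1 -0.082, Prim2 -0.091, Pold1 -0.17, Pold3 -0.057, Pcna -0.17, Rpa3 -0.13, Lig1 -0.12, Rrm1 -0.11, Rrm2 -0.79, Tyms -0.19, Tk1 -0.32, Ccne1 -0.076, Ccne2 -0.98 and Uhrf1 -0.53. With the erythroid score, 29 turned: Orc1 -0.10, Cdc6 -0.57, Gmnn -0.16, Mcm2 -0.12, Mcm3 -0.28, Mcm4 -0.26, Mcm5 -0.25, Mcm7 -0.24, Cdc45 -0.16, Mcm10 -0.41, Gins1 -0.11, Gins2 -0.11, Gins3 -0.067, Pola1 -0.30, Pola2 -0.029, Prim1 -0.072, Prim2 -0.084, Pold1 -0.10, Pold3 -0.037, Pcna -0.17, Rpa3 -0.078, Lig1 -0.12, Rrm1 -0.093, Rrm2 -0.91, Tyms -0.15, Tk1 -0.35, Ccne1 -0.042, Ccne2 -0.92 and Uhrf1 -0.55. With the 18S level, 32 turned: Orc1 -0.045, Cdc6 -0.45, Gmnn -0.14, Mcm2 -0.14, Mcm3 -0.26, Mcm4 -0.29, Mcm5 -0.28, Mcm6 -0.13, Mcm7 -0.24, Cdc45 -0.22, Mcm10 -0.25, Gins1 -0.084, Gins2 -0.21, Gins3 -0.15, Pola1 -0.26, Pola2 -0.068, Prim1 -0.19, Prim2 -0.21, Pold1 -0.20, Pold3 -0.026, Pcna -0.23, Rfc4 -0.012, Rfc5 -0.055, Rpa3 -0.33, Lig1 -0.19, Rrm1 -0.11, Rrm2 -0.71, Tyms -0.073, Tk1 -0.35, Ccne1 -0.084, Ccne2 -0.87 and Uhrf1 -0.54. With array weights, 13 turned: Mcm3 -0.063, Mcm4 -0.093, Mcm5 -0.034, Mcm7 -0.078, Mcm10 -0.019, Pola1 -0.052, Pold1 -0.024, Pold3 -0.0016, Pcna -0.030, Rrm2 -0.19, Tk1 -0.030, Ccne2 -0.28 and Uhrf1 -0.10. With the mean over probe sets 2 turned (Pola2 -0.011 and Pole2 0.067), without probe sets marked for several transcripts Mcm10 (-0.19) and with the replicate block Pole2 (0.0046). With 1 array left out 9 members took both signs: Mcm3 -0.019 to 0.40, Mcm4 -0.018 to 0.31, Mcm7 -0.0013 to 0.32, Pold1 -0.040 to 0.14, Pole2 -0.15 to 0.12, Pcna -0.012 to 0.31, Rpa3 -0.030 to 0.26, Rrm2 -0.023 to 1.24, Ccne2 -0.057 to 1.01.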
